A study of Mus musculus with 7 samples.

Results

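The genes described here handle zinc, iron and copper in sorted mouse Paneth cells. They were chosen by symbol: every zinc exporter of the Slc30a family, every zinc importer of the Slc39a family, the metallothioneins Mt1, Mt2 and Mt4 with the zinc sensor Mtf1, 10 iron genes and 5 copper genes. That gave 43 of the 19938 genes that had a transcript cluster, the unit in which the array reports a gene, annotated to them alone, and 41 of them were among the 13409 genes tested. Cells labelled as Paneth cells were sorted from mice aged 4 months, and 1 array was run per sample. The ad libitum mice (n = 3) ate freely, and the calorie restricted mice (n = 4) received 60% of the ad libitum calories for 4 to 7 weeks. The labels give no strain, sex or genotype and call the samples biological replicates. Whether a sample came from 1 animal or a pool is not given in the sources used here, so p-values measure the spread between these samples. Values are log2 expression as deposited, given for ad libitum replicates 1 to 3 and calorie restricted replicates 1 to 4. Differences are calorie restricted minus ad libitum ± the standard error (SE) of limma's moderated fit. Genes are called at an adjusted p (Benjamini-Hochberg over all genes tested) below 0.05. Levels of different genes are not set against each other, because each transcript cluster has its own probe response.

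Paneth cells sit at the base of small-intestinal crypts and store zinc in the granules that also hold their antimicrobial proteins. Slc30a proteins move zinc out of the cytosol, into vesicles or out of the cell, whereas Slc39a proteins move it into the cytosol. Free cytosolic zinc activates Mtf1, which switches on the zinc-binding metallothioneins. Iron and copper follow partly shared routes in the intestinal epithelium, where copper-dependent hephaestin oxidises the iron that ferroportin exports.

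The sort and the arrays were checked first. The Paneth markers Lyz1 (between 14.26 and 14.34) and Mmp7 (between 13.69 and 14.02) were far above the filter level of 6.79, the 40th percentile of all transcript clusters, on all 7 arrays. Markers of absorptive enterocytes moved with diet. Of 24 measured, 9 were called higher under calorie restriction, all 24 differences were positive, and the list mean was 11.59 to 11.81 in the calorie restricted and 10.20 to 10.89 in the ad libitum arrays. All 24 lay above the filter level. For the other lists 0 genes were called, though some leaned one way: differences were positive for 8 of 8 enteroendocrine (median 0.29), 0 of 5 tuft (median -0.19), 1 of 10 Paneth (median -0.05) and 1 of 6 goblet markers (median -0.05). Goblet markers had a mean of 13.39 to 13.63 over all arrays, and 7 of 10 macrophage markers lay below the filter level, including Adgre1 and Csf1r. Of 3 measured erythroid genes, Alas2 lay below it. In bulk samples fewer cells of a type and less RNA per cell cannot be told apart.

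The arrays also fell into sets that crossed the diets. Array medians were 7.24, 7.26, 7.27 and 7.29 in calorie restricted replicates 2, 1 and 3 and ad libitum replicate 1. They were 7.42, 7.42 and 7.44 in calorie restricted replicate 4 and ad libitum replicates 3 and 2. The labels name no batch, and these sets were seen in the data. The differences of the set, of the 2 further genes called and the counts of calls were also fitted with the array set as a block, an alternative added after seeing the data.

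Of the 41 genes tested, 0 were called higher and 0 lower (limma). Over all genes tested 88 (0.656%) were called higher and 1 (0.00746%) lower, 0.664% in either direction. Estimated array weights, which counted ad libitum replicate 1 and calorie restricted replicate 4 least, gave 7 of the 41 higher and 0 lower, beside 7.18% and 2.92% of all genes. At an unadjusted p below 0.05 there were 5 of the 41, namely Slc30a10, Heph, Mt2, Aco1 and Slc30a5, beside 9.3% of all genes. The diets did not overlap for 4 of the 41 (9.76%), all higher under calorie restriction. Over all genes this held for 10.2%, of which 7.14% were higher and 3.03% lower, so the share of the set was near the background. The 27 positive differences (65.9%) stood beside 54.2% of all genes, and the median difference was 0.05 beside 0.01. With the array set as a block the median of the set changed sign, to -0.03, and that of all genes also did, to -7e-05. The 95% interval of the difference lay within 0.5 log2 units of 0 for 26 genes (63.4%, beside 74.9% of all genes) and within 1 log2 unit for 38 (92.7%, beside 95.8%). The 3 genes with wider intervals were Mt1, Mt2 and Slc39a10.

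**Figure D1:**
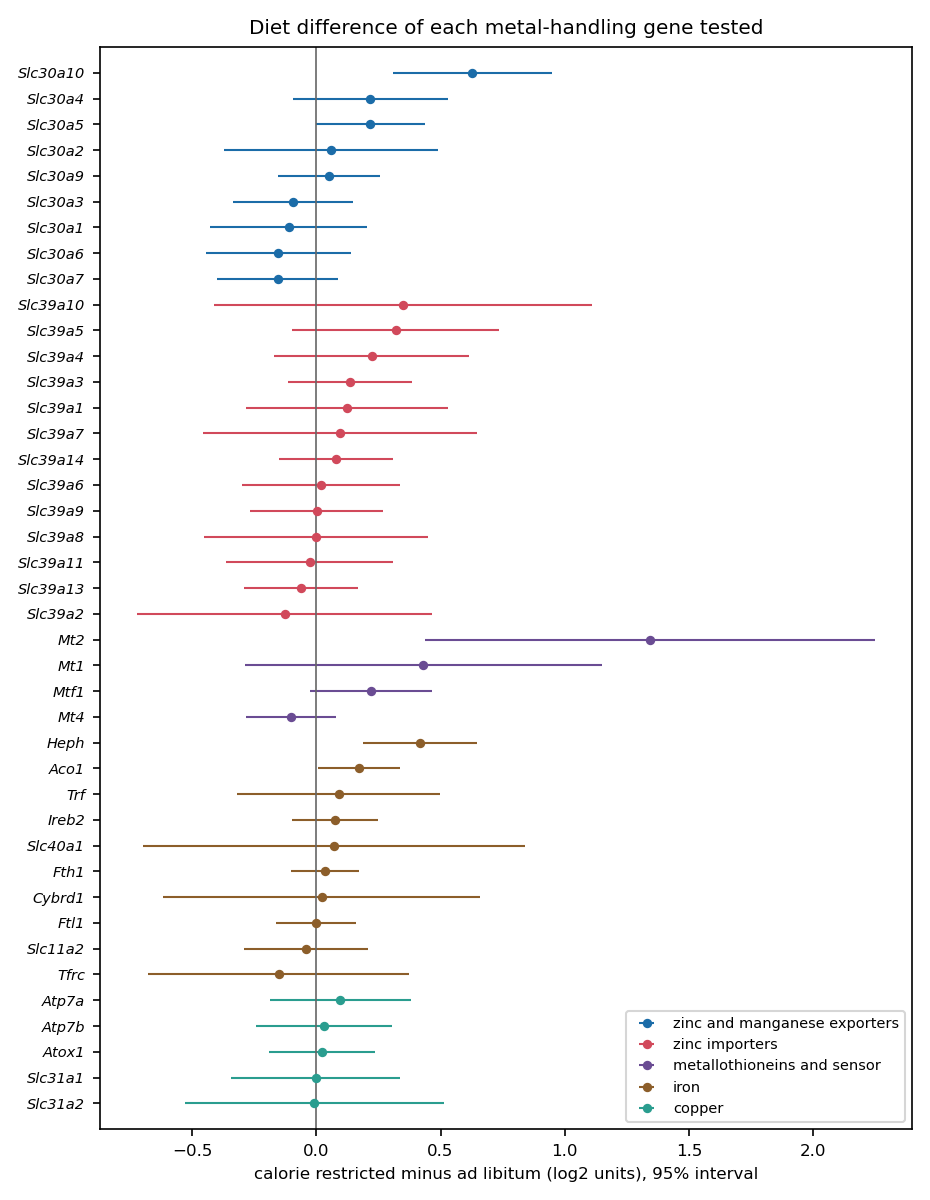
Each point is the difference of 1 gene, calorie restricted minus ad libitum in log2 units, and the bar is its 95% interval from limma; colours mark the roles, and genes are ordered by difference within a role. The bars of Slc30a10, Heph, Mt2, Aco1 and Slc30a5 lie above 0, and 0 of the 41 genes passed the adjusted threshold.

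Among the exporters, Slc30a10 had the smallest p of all 41 genes. It exports manganese, and its loss causes manganese overload in humans and mice. It stood at 7.57, 7.35 and 7.62 in the ad libitum arrays and at 7.995, 8.18, 8.45 and 7.94 in the calorie restricted arrays. Every calorie restricted array was above every ad libitum array, with a gap of 0.32 between the nearest. The difference was 0.63 ± 0.14 (1.55-fold, 95% interval 0.31 to 0.95), with an adjusted p of 0.127 in limma. It was 0.55 ± 0.14 with the array set as a block (limma, adjusted p = 0.0624), at 0.64 within the lower-median arrays and 0.45 within the higher-median arrays. Enterocyte markers moved in the same direction, with the list means given above. Their part in the Slc30a10 values was not tested.

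Slc30a2 loads zinc into secretory vesicles, and mice without it have abnormal Paneth granules. It was at 11.72, 11.28 and 11.00 in the ad libitum arrays and at 11.33, 11.52, 11.64 and 11.08 in the calorie restricted arrays. The diets overlapped over most of their range, and the difference of 0.06 ± 0.19 had a 95% interval of -0.37 to 0.49. The plasma membrane exporter Slc30a1, a classic Mtf1 target, was at 7.68, 7.50 and 7.73 under ad libitum feeding. It was at 7.62, 7.22, 7.49 and 7.78 under calorie restriction. Its difference was -0.11 ± 0.14, so a rise of more than 0.21 log2 units lay outside the 95% interval.

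Slc30a5, Slc30a6 and Slc30a7 supply zinc to enzymes of the secretory pathway, the first as a partner of the second. Slc30a5 was at 11.13, 10.98 and 11.03 in the ad libitum arrays and at 11.34, 11.27, 11.39 and 11.06 in the calorie restricted arrays. Only calorie restricted replicate 4 of its group fell among the ad libitum values, and the difference was 0.22 ± 0.09 (limma, adjusted p = 0.537). Slc30a6 (-0.15 ± 0.13) and Slc30a7 (-0.16 ± 0.11) had differences of the opposite sign. With the array set as a block these were -0.29 ± 0.07 and -0.25 ± 0.07 (limma, adjusted p = 0.0685 and 0.0891). Slc30a7 stood at 11.37, 11.26 and 11.12 in the ad libitum arrays and at 11.22, 11.06, 11.20 and 10.88 in the calorie restricted arrays, so the diets overlapped. The vesicular exporter Slc30a4 stood at 10.93, 10.53 and 10.42 in the ad libitum arrays and at 10.85, 10.95, 10.93 and 10.65 in the calorie restricted arrays. Ad libitum replicate 1 lay among its calorie restricted values, and the difference was 0.22 ± 0.14, or 0.07 with that block. Slc30a9, linked to mitochondrial zinc, had a difference of 0.05 ± 0.09, and Slc30a3, the exporter of synaptic vesicles, one of -0.10 ± 0.11. Slc30a8, which loads insulin granules, had a mean of 6.16 over all arrays, below the filter level, and was not tested.

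**Figure D2:**
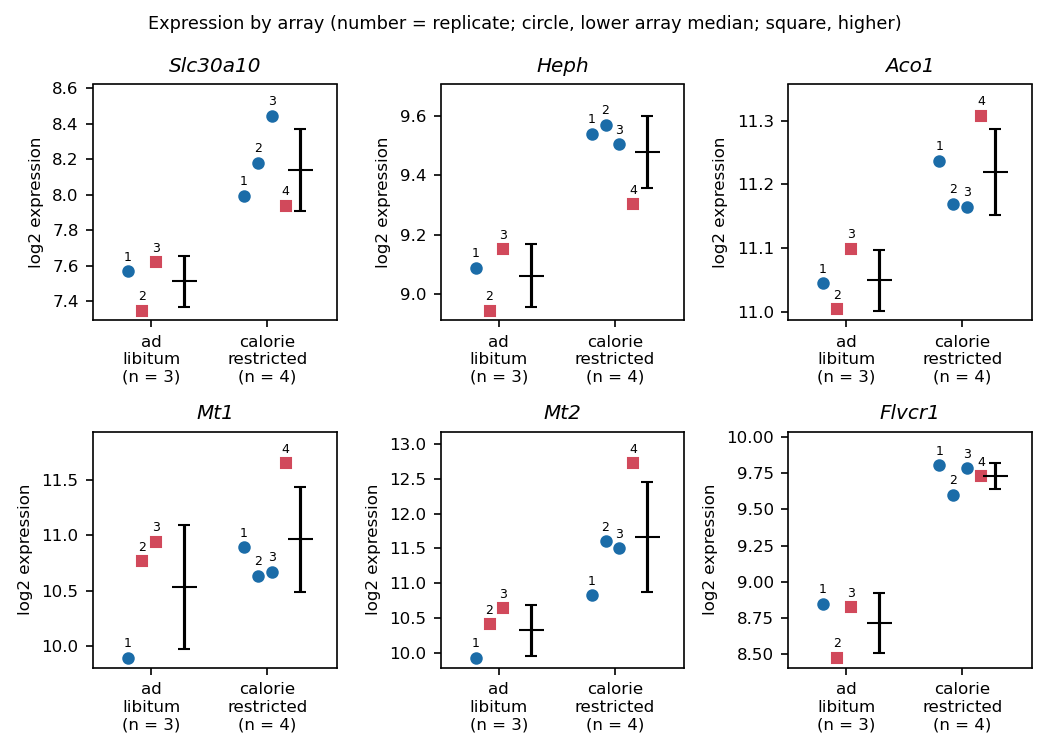
Log2 expression of 6 genes in each array, with the replicate number beside each point; circles are the 4 arrays with lower medians, squares the 3 with higher medians, and the bars give mean ± SD per diet. The diets do not overlap for Slc30a10, Heph, Aco1, Mt2 and Flvcr1, and overlap for Mt1, where both sets of arrays run from a low ad libitum to a higher calorie restricted value.

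Of the 13 zinc importers tested, 9 had a positive and 4 a negative difference, from -0.13 to 0.35. In 0 of the 13 the diets did not overlap, beside 10.2% of all genes. Slc39a4 takes up dietary zinc at the apical membrane, and its loss in humans causes acrodermatitis enteropathica. It was at 11.33, 10.50 and 10.80 in the ad libitum arrays and at 11.12, 11.06, 11.14 and 11.09 in the calorie restricted arrays. The calorie restricted values were nearly level (SD 0.03) and lay inside the wider ad libitum range (SD 0.42). The difference was 0.22 ± 0.17, and leaving out 1 array gave between 0.04 (without ad libitum replicate 2) and 0.45 (without ad libitum replicate 1).

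Slc39a5, a basolateral importer, was at 10.52, 10.52 and 10.98 in the ad libitum arrays and at 11.28, 10.83, 10.66 and 11.20 in the calorie restricted arrays. Ad libitum replicate 3 lay among the calorie restricted values, and the difference was 0.32 ± 0.18 (limma, adjusted p = 0.687). Slc39a8 and Slc39a14 carry manganese and iron as well as zinc. Slc39a8 was at 11.34, 10.89 and 10.83 in the ad libitum arrays and at 11.06, 11.20, 11.27 and 10.54 in the calorie restricted arrays, with a difference of 0.00 ± 0.20. The diets overlapped, and calorie restricted replicate 4 was lowest. Slc39a14 was at 10.53, 10.68 and 10.60 in the ad libitum arrays and at 10.49, 10.77, 10.84 and 10.63 in the calorie restricted arrays, with a difference of 0.08 ± 0.10 (95% interval -0.15 to 0.31). So neither Slc39a8 nor Slc39a14 had diets that stood apart as those of the manganese exporter Slc30a10 did. Slc30a10 itself was not called, and the differences were not tested against each other.

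Slc39a10 had the widest spread of the importers under calorie restriction (SD 0.62), at 10.83, 10.19 and 10.05 in the ad libitum arrays and 10.67, 11.15, 11.16 and 9.85 in the calorie restricted arrays. Its lowest value was in calorie restricted replicate 4, and its difference was 0.35 ± 0.33. Slc39a7, which releases zinc from the endoplasmic reticulum, also had its lowest value there, at 10.63 beside 11.38, 11.45 and 11.67 in the other calorie restricted arrays. Its difference was 0.10 ± 0.24. Slc39a1, the importer with a second transcript cluster, was at 0.12 ± 0.18, and the dimmer cluster had means of 10.61 under calorie restriction and 10.37 under ad libitum feeding. Slc39a3 was at 0.14 ± 0.11, the Golgi carriers Slc39a9 and Slc39a11 at 0.00 ± 0.12 and -0.03 ± 0.15, and Slc39a6, Slc39a13 and Slc39a2 at 0.02, -0.06 and -0.13. Slc39a12 had a mean of 5.65, below the filter level, and was not tested.

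Metallothioneins are small cysteine-rich proteins that bind zinc and copper, and their genes lie next to each other on chromosome 8 in the order Mt4, Mt3, Mt2, Mt1. Mtf1 binds the metal response element, whose core is searched here as TGCACNC or TGCGCNC on both strands. The promoters of Mt1, Mt2 and Slc30a10 are shown because they belong to the genes with the largest diet differences in the set and each holds 3 or more such cores. Each runs from 250 bases before to 30 bases after the RefSeq start site in GRCm38.p6, on the plus strand, with the cores in capitals. Mt1 is at chr8:94178839-94179118, Mt2 at chr8:94172368-94172647 and Slc30a10 at chr1:185454598-185454877.
Mt1: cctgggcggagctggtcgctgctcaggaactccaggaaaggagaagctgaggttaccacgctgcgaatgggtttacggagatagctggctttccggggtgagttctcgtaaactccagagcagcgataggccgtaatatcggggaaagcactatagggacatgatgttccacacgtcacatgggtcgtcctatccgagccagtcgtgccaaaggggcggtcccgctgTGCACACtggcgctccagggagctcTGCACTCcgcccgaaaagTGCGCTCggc
Mt2: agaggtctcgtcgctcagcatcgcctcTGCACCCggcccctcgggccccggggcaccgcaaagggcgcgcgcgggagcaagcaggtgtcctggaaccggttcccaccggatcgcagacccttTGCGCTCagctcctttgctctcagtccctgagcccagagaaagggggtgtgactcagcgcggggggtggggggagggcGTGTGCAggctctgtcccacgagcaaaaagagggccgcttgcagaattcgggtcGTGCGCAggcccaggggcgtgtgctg
Slc30a10: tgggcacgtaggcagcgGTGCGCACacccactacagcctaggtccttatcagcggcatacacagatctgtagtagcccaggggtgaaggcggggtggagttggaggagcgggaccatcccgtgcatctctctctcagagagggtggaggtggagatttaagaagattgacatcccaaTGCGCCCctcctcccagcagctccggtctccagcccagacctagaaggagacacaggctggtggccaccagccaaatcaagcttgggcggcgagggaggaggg
Mt1 held 3 cores in this window, at positions -23, 3 and 21 from the RefSeq start site, all on the plus strand. Mt2 held 4, at -223 and -128 on the plus strand and at -50 and 5 on the minus strand. Slc30a10 held 3, of which those at -233 and -232 overlap on opposite strands and the third is at -73. Of the 43 genes, 35 matched the RefSeq promoter table, and 19 of these (54.3%) held at least 1 core in a promoter, beside 26.6% of the 27025 genes in the table. The genes with 3 or more were Mt1, Mt2, Slc30a10 and Slc30a4, beside 1.99% of all genes. Mtf1 itself held 0, Slc30a1 held 1, and Heph was not in the promoter table. The promoters shown were picked by both their diet differences and their cores. They therefore cannot show whether cores and diet differences go together. A match to these letters is a description of the window and not a binding site. The start sites were taken from RefSeq and not checked, and cores outside the windows were not counted.

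Mt2 had the largest difference of the set. It was at 9.92, 10.40 and 10.64 in the ad libitum arrays and at 10.83, 11.61, 11.51 and 12.73 in the calorie restricted arrays. Every calorie restricted array was above every ad libitum array, and calorie restricted replicate 4 was 1.12 above the next. The difference was 1.34 ± 0.39 (2.54-fold, 95% interval 0.44 to 2.25; limma, adjusted p = 0.271). It did not pass, beside an SD of 0.79 within the calorie restricted group. Mt1 was at 9.89, 10.77 and 10.94 in the ad libitum arrays and at 10.89, 10.64, 10.67 and 11.66 in the calorie restricted arrays. Here ad libitum replicates 2 and 3 lay among the calorie restricted values, and the difference was 0.43 ± 0.31 (limma, adjusted p = 0.781). Leaving out 1 array gave between 0.11 (without ad libitum replicate 1) and 0.63 (without ad libitum replicate 3).

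Within both diets, Mt1 and Mt2 were higher in the arrays with higher medians. For Mt1 that gap was 0.92 under calorie restriction and 0.96 under ad libitum feeding, larger than its diet difference. For Mt2 it was 1.42 and 0.60. Within the lower-median arrays the diet difference was 0.84 for Mt1 and 1.39 for Mt2, and within the higher-median arrays it was 0.80 and 2.21. With the array set as a block, Mt1 was 0.82 ± 0.09 (limma, adjusted p = 0.00462) and Mt2 1.77 ± 0.23 (limma, adjusted p = 0.00784) higher under calorie restriction. That made 2 of the 41 genes, beside 348 (2.6%) higher and 168 (1.25%) lower of all genes in the same fit. The ad libitum side of the lower-median set and the calorie restricted side of the higher-median set were 1 array each. Estimated array weights instead gave Mt1 0.03 ± 0.18 (limma, adjusted p = 0.931) and Mt2 1.07 ± 0.25 (limma, adjusted p = 0.0330). The size of the Mt1 difference thus depended on how these arrays were handled. The coding sequences of Mt1 and Mt2 are alike, so how far each probe set also reports the other is not known.

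The sensor Mtf1 was at 9.19, 8.94 and 9.01 in the ad libitum arrays and at 9.14, 9.36, 9.39 and 9.17 in the calorie restricted arrays. Ad libitum replicate 1 lay above the lowest pair of calorie restricted values, and the difference was 0.22 ± 0.11 (limma, adjusted p = 0.611). Mt4, a metallothionein of stratified epithelia, was at 7.27, 7.15 and 7.09 in the ad libitum arrays and at 7.11, 6.97, 7.12 and 7.10 in the calorie restricted arrays. Its values lay near the filter level and the diets overlapped, with a difference of -0.10 ± 0.08.

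Of the 10 iron genes, 2 had diets that did not overlap, both higher under calorie restriction. Over all genes tested this held for 10.2%, with 7.14% higher. Heph encodes hephaestin, the copper-dependent ferroxidase of the basolateral membrane of absorptive cells. It was at 9.09, 8.94 and 9.15 in the ad libitum arrays and at 9.54, 9.57, 9.50 and 9.30 in the calorie restricted arrays. Every calorie restricted array lay above the ad libitum values, replicate 4 by the least. The difference was 0.42 ± 0.10 (1.34-fold, 95% interval 0.19 to 0.65; limma, adjusted p = 0.166), and 0.36 ± 0.09 with the array set as a block (limma, adjusted p = 0.0650). The enterocyte list mean was also higher in each calorie restricted array, and its part was not tested. Slc40a1, ferroportin, exports the iron that hephaestin oxidises. It was at 6.51, 7.22 and 7.65 in the ad libitum arrays and at 7.18, 6.69, 7.94 and 6.98 in the calorie restricted arrays. The spread within each diet (SD 0.57 and 0.53) far exceeded the difference of 0.07 ± 0.33.

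On the uptake side, Cybrd1 reduces dietary iron at the brush border and Slc11a2 carries it in. Cybrd1 was at 11.82, 11.04 and 10.78 in the ad libitum arrays and at 11.14, 11.47, 11.60 and 10.74 in the calorie restricted arrays. The lowest values came from ad libitum replicate 3 and calorie restricted replicate 4, and the difference was 0.02 ± 0.28. Slc11a2 was at 9.59, 9.40 and 9.22 in the ad libitum arrays and at 9.36, 9.41, 9.43 and 9.25 in the calorie restricted arrays. The diets overlapped, and the difference was -0.04 ± 0.11. The transferrin receptor gene Tfrc was at 10.31, 10.80 and 10.82 in the ad libitum arrays and at 10.57, 10.13, 10.23 and 11.04 in the calorie restricted arrays. It was highest in the arrays with higher medians, by 0.73 under calorie restriction and 0.50 under ad libitum feeding, while the diets differed by -0.15 ± 0.23. Its ligand gene Trf was at 7.68, 7.67 and 7.65 in the ad libitum arrays and at 7.69, 8.17, 7.85 and 7.32 in the calorie restricted arrays. The ad libitum arrays were nearly level and lay within the wide calorie restricted range, with a difference of 0.09 ± 0.18.

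The ferritin subunits store iron. Fth1, the heavy chain, was at 13.52, 13.50 and 13.53 in the ad libitum arrays and at 13.59, 13.55, 13.61 and 13.46 in the calorie restricted arrays. Its difference of 0.03 ± 0.06 had the narrowest interval of the set, -0.10 to 0.17. Ftl1, the light chain, was at 12.78, 12.63 and 12.62 in the ad libitum arrays and at 12.70, 12.73, 12.67 and 12.59 in the calorie restricted arrays, with a difference of 0.00 ± 0.07. It was read from its 1 transcript cluster with a single symbol, and 4 more clusters name it together with other genes, so its level is uncertain. Ferritin is regulated mainly through translation, which the arrays do not measure.

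The iron regulatory proteins bind the messenger RNAs of ferritin and the transferrin receptor. Aco1, which encodes the first of them and doubles as the cytosolic aconitase, was at 11.05, 11.00 and 11.10 in the ad libitum arrays. It was at 11.24, 11.17, 11.16 and 11.31 in the calorie restricted arrays. The diets did not overlap, with a gap of 0.07 between the nearest arrays. The difference was 0.17 ± 0.07 (1.13-fold; limma, adjusted p = 0.521). Ireb2, the gene of the second regulatory protein, was at 10.45, 10.49 and 10.51 in the ad libitum arrays and at 10.56, 10.61, 10.61 and 10.45 in the calorie restricted arrays. Replicate 4 alone kept its diets from separating, and the difference was 0.08 ± 0.08.

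The 5 copper genes had differences from -0.01 to 0.10. With the array set as a block these ran from -0.28 ± 0.09 (Slc31a2) to 0.07 ± 0.08 (Atox1), and the 5 genes were not called. All had diets that overlapped, whereas 10.2% of all genes did not. Slc31a1 imports copper at the plasma membrane, and Slc31a2 is its endosomal relative. Slc31a1 was at 11.71, 11.16 and 11.28 in the ad libitum arrays and at 11.44, 11.45, 11.50 and 11.13 in the calorie restricted arrays, with a difference of 0.00 ± 0.15. Slc31a2 was at 11.54, 11.05 and 10.85 in the ad libitum arrays and at 11.20, 11.43, 11.34 and 10.60 in the calorie restricted arrays, with a difference of -0.01 ± 0.23. In both, calorie restricted replicate 4 was the lowest of its group and ad libitum replicate 1 the highest of all 7 arrays. Atox1 hands copper to the pumps Atp7a and Atp7b. It was at 9.77, 9.78 and 10.00 in the ad libitum arrays and 9.89, 9.87, 9.77 and 9.96 in the calorie restricted arrays, a difference of 0.02 ± 0.09. Atp7a, which exports dietary copper, was at 9.77, 9.39 and 9.37 in the ad libitum arrays and at 9.63, 9.66, 9.71 and 9.44 in the calorie restricted arrays, a difference of 0.10 ± 0.12. Its ad libitum replicate 1 was above all calorie restricted arrays. Atp7b, the pump mutated in Wilson disease, was at 9.45, 9.41 and 9.02 in the ad libitum arrays and at 9.25, 9.38, 9.36 and 9.31 in the calorie restricted arrays. Its difference was 0.03 ± 0.12, and its 95% interval ran from -0.24 to 0.31.

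Variation within the diets followed one pattern in many of these genes. In 20 of the 41 (48.8%) ad libitum replicate 1 was the highest of its group and calorie restricted replicate 4 the lowest of its group, beside 28% of all genes tested. This held for 8 of the 13 importers, 5 of the 9 exporters, 4 of the 10 iron genes, 3 of the 5 copper genes and 0 of the 4 metallothionein and sensor genes. In 28 of the 41 (68.3%) the higher-median arrays lay below the lower-median arrays within both diets, beside 40.4% of all genes. Averaged over the diets, these gaps were widest for Slc39a10 (-1.14 under calorie restriction and -0.70 under ad libitum feeding), Cybrd1 (-0.66 and -0.91) and Slc39a7 (-0.87 and -0.46). In 7 (17.1%) they lay above within both diets, beside 32.8% of all genes. These 7 were Mt1, Mt2, Tfrc, Slc39a2, Slc39a5, Aco1 and Atox1. Under calorie restriction the higher-median side was replicate 4 alone, and under ad libitum feeding the lower-median side was replicate 1 alone. The 20 genes are therefore all among the 28, and these counts are not separate observations. The sets were seen in these values, so the counts are a description.

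Markers of other cells differed between the same arrays. The mean of the 8 enteroendocrine markers was 10.51, 10.57 and 10.52 in calorie restricted replicate 4 and ad libitum replicates 2 and 3, and 10.87 to 11.57 in the other 4 arrays. The mean of the 6 crypt stem and cycling markers was 11.25, 11.34 and 11.31 in those 3 arrays and 10.47 to 11.11 in the other 4. The Paneth list mean was lowest in calorie restricted replicate 4, at 13.20 beside 13.40 to 13.50 in the other 6 arrays. The part of these cells in the metal-handling values was not tested.

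**Figure D3:**
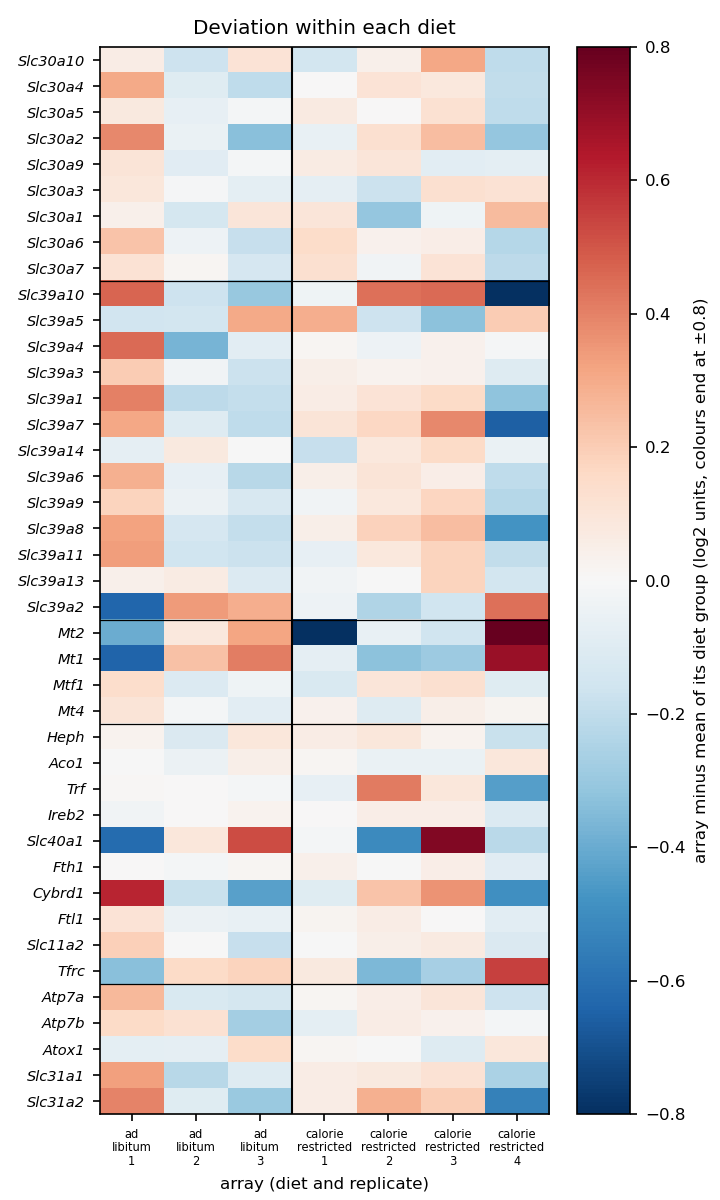
Each row is 1 of the 41 genes and each column 1 array; colour gives the array's value minus the mean of its diet group in log2 units, and lines separate diets and roles in the order exporters, importers, metallothioneins and sensor, iron, copper. Ad libitum replicate 1 is above its group mean for 31 genes and calorie restricted replicate 4 for 10. Mt1, Mt2, Tfrc, Slc39a2, Slc39a5, Aco1 and Atox1 run the opposite way, Aco1 by little in ad libitum replicate 1.

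**Figure D4:**
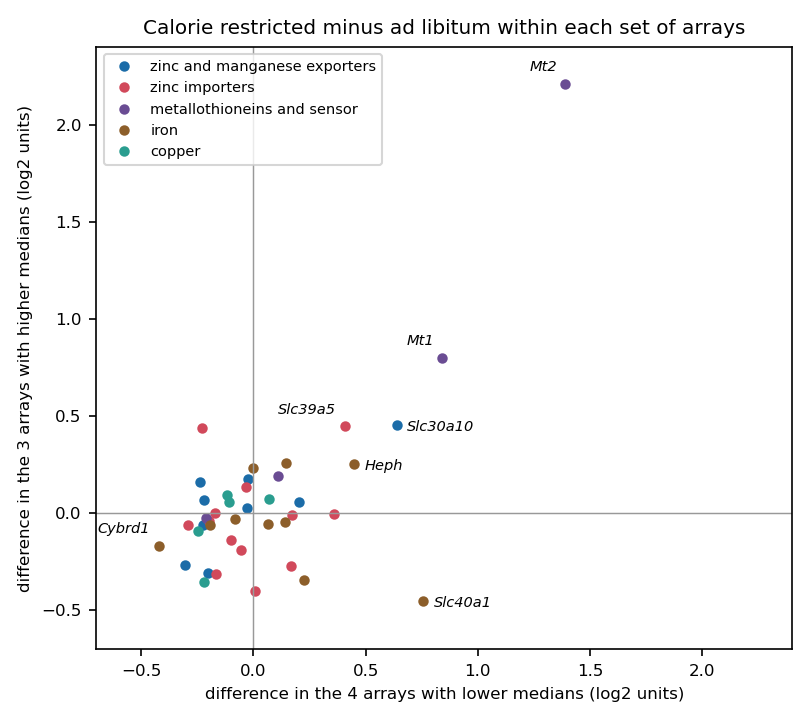
Each point is 1 gene; the axes give calorie restricted minus ad libitum in log2 units within the 4 arrays with lower medians (3 calorie restricted, 1 ad libitum) and within the 3 arrays with higher medians (1 calorie restricted, 2 ad libitum). Mt1 and Mt2 lie at 0.84 and 1.39 on the first axis and at 0.80 and 2.21 on the second, while Slc40a1 is positive in one set and negative in the other.

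The sign of the diet difference was the same in both sets of arrays for 23 of the 41 genes (56.1%), beside 63.6% of all genes. It was positive in both sets for 9 (22%, beside 33.7% of all genes) and negative in both for 14 (34.1%, beside 29.9%). The 9 were Mt1, Mt2, Mtf1, Slc30a5, Slc30a10, Slc39a5 (0.41 and 0.45), Heph (0.45 and 0.25), Aco1 and Atox1. The 14 were Slc30a2, Slc30a6 (-0.30 and -0.27), Slc30a7 (-0.20 and -0.31), Slc39a6, Slc39a8 (-0.17 and -0.32), Slc39a9, Slc39a11, Slc39a13, Mt4, Slc11a2, Cybrd1 (-0.42 and -0.17), Ftl1, Slc31a1 and Slc31a2 (-0.22 and -0.35). Slc40a1 was at 0.76 in the lower-median arrays and -0.45 in the higher-median arrays.

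Further genes of heme, iron, copper and zinc metabolism outside the set gave 2 calls higher and 0 lower of 39 tested, beside 0.656% and 0.00746% of all genes. Their differences were positive for 30 (76.9%, beside 54.2% of all genes), with a median of 0.10 beside 0.01. Flvcr1 exports heme from cells. Its difference stayed between 0.78 and 1.12 under the alternatives, and its call held when its 2 transcript clusters were averaged. The brighter cluster, used here, was at 8.85, 8.48 and 8.82 in the ad libitum arrays and at 9.80, 9.60, 9.78 and 9.73 in the calorie restricted arrays. The diets did not overlap, with 0.75 between the nearest arrays, and the difference was 1.01 ± 0.12 (2.02-fold; limma, adjusted p = 0.0121). It was 0.97 with the array set as a block (limma, adjusted p = 0.00618), and the call ended when calorie restricted replicate 1 or replicate 3 was left out (limma, adjusted p = 0.0673 and 0.0592) and in an ordinary linear model (adjusted p = 0.172). Cndp2, a metal-dependent cytosolic dipeptidase, was at 10.06, 9.79 and 10.17 in the ad libitum arrays and at 11.16, 10.84, 10.82 and 10.63 in the calorie restricted arrays. Its difference was 0.86 ± 0.14 (1.81-fold; limma, adjusted p = 0.0448). That call ended in 6 of the 7 fits that left out 1 array, with an adjusted p of 0.0601 to 0.197, and held without calorie restricted replicate 4. It also ended after quantile normalization and after median centring (limma, adjusted p = 0.0605 and 0.0587) and in the ordinary linear model (adjusted p = 0.227). The enterocyte list mean was higher in the same arrays, and its part in both calls was not tested.

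Of the 39 genes of this kind tested, 7 had an unadjusted p below 0.05, the 2 called genes among them, beside 1247 (9.3%) of all 13409 genes. The other 5 did not pass. Those named next were chosen after their values were seen. Crip1, a zinc-binding LIM protein of the intestine, had a difference of 0.49 ± 0.10 (limma, adjusted p = 0.100). The hypoxia factor Hif1a was at 0.34 ± 0.11, and the heme oxygenases Hmox1 and Hmox2, which free iron from heme, at 0.45 ± 0.19 and 0.24 ± 0.08.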

How the data were processed

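Total RNA of 7 samples (4 calorie restricted, 3 ad libitum) was measured on 1 Affymetrix array each. The deposited log2 values per transcript cluster come from Affymetrix Expression Console, the only program that the submitters' processing notes name. Its version and summarisation settings (algorithm, background correction, normalization) are not given there, and the log2 scale was inferred from the range of 2.97 to 14.7. No detection call was used. The number of arrays limits the precision.

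Of 35556 clusters, 21789 had 1 gene symbol in the platform annotation, 1621 had several and 12146 were unnamed here. Checking through gene identifiers against RefSeq (GRCm38.p6) changed 0 symbols. The brightest cluster per gene was kept (19938 genes), and 13409 of these had a mean of at least 6.79, the 40th percentile over all clusters, and were tested. The test was limma's moderated fit (limma version 3.58.1 in R version 4.3.3; lmFit, then eBayes with trend) on diet alone, and p-values were adjusted by Benjamini-Hochberg across the 13409 genes. The fit was tested on simulated data with independent noise in each array, which leaves out the array sets seen in the real values.

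The genes and lists were chosen with earlier results of these data known. Values per array are given for the genes with the 12 smallest p and for representatives of each role, and further metal genes outside the set are named if called, beside 4 uncalled ones chosen after their values were seen. Alternatives were quantile normalization, median centring, no filter, a stricter filter (60th percentile), averaging a gene's clusters, eBayes without trend or robust, estimated array weights, ordinary least squares, a replicate-number block, leaving out each array, and, added after seeing the data, the array set as a block. Promoters are from RefSeq (GRCm38.p6). Figures were drawn with matplotlib (version 3.10.9).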

Additional observations from a re-analysis of the deposited data

Results flagged for a closer look

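The 4 calorie restricted values of each of the 43 genes were examined for a single array far from the other 3, and 4 genes had one past Dixon's 95% limit, a limit that chance alone passes in about 5% of groups. Calorie restricted replicate 4 stood low for Slc39a3 (8.90, with the other arrays at 9.03 to 9.05), Slc39a6 (8.02, beside 8.27 to 8.32) and Slc31a1 (11.13, beside 11.44 to 11.50). Calorie restricted replicate 2 stood low for Mt4 (6.97, beside 7.10 to 7.12). Replicate 4 was also the lowest calorie restricted array for 25 of the 41 genes tested and for a smaller share of all genes, 4932 of 13409. The share of all genes past the limit was not computed, so whether these flags are particular to the set cannot be told. The groups of 3 ad libitum arrays were not tested.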

How the results depend on the processing

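The count of metal-handling genes called was 0 higher and 0 lower in 16 of 18 alternatives (limma or the ordinary linear model; between 3 and 9 genes had an unadjusted p below 0.05). It was 7 higher with array weights (Slc30a4, Slc30a5, Slc30a10, Slc39a4, Mt2, Mtf1 and Heph), beside 963 (7.18%) of all genes higher and 392 (2.92%) lower. Those weights were 0.292 for ad libitum replicate 1 and 0.371 for calorie restricted replicate 4, and 0.958 to 2.93 for the others. It was 2 higher with the array set as a block, beside 348 of all genes higher and 168 lower. Over all genes the count of higher genes was 53 after quantile normalization, 0 with the ordinary linear model (1318 at an unadjusted p below 0.05) and 12 to 97 when 1 array was left out. The count of lower genes was 0 after quantile normalization, median centring, the 60th percentile filter and the ordinary linear model, 2 with no filter and 0 to 9 without 1 array. The count of further metal genes was 1 after quantile normalization and after median centring, 9 with array weights, 0 with the ordinary linear model (6 at an unadjusted p below 0.05) and 0 to 2 without 1 array. With the replicate number as a block, counts were 0 for the metal-handling genes and 0 for the further metal genes. Over all genes they were 0 higher and 0 lower (988 at an unadjusted p below 0.05). Deviations of same-numbered arrays from their group means correlated at -0.55 to -0.126 across genes. The labels do not say whether equal numbers pair samples. These correlations cannot decide it, because the deviations also followed the array sets (-0.731 between calorie restricted replicate 4 and ad libitum replicate 1). Median centring raised the median of all genes from 0.01 to 0.10 and that of the set from 0.05 to 0.14. Of 731 values of the set under these alternatives, 71 in 22 genes turned sign, and 0 of those passed the threshold. Slc30a10 stayed between 0.53 and 0.76, Heph between 0.36 and 0.53, Mt2 between 0.99 and 1.77, and Mt1 between 0.03 and 0.82. The causes of these changes were not tested.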
